A study of Mus musculus with 2 samples.

Results

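The CD8 T cells of the second of 2 deposited runs were 302 barcodes, of 20568 in that run and 43965 in the series. They were selected on their own counts: at least 1 UMI (unique molecular identifier, which stands for 1 captured transcript) of *Cd3e* and at least 1 of *Cd8b1*, with no UMI of *Cd4*, *Csf1r* or *Cd79a*. Of the 302 barcodes, 282 came from the PEP-619WW library and 20 from the PEP-WT library. The PEP-619WW barcodes are therefore described against the same gate in the PEP-619WW library of run 1, which held 611 barcodes. The PEP-WT run 1 gate held 969.

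The study asked how an autoimmunity-associated variant of PEP, the phosphatase encoded by *Ptpn22*, affects antiviral immunity. PEP-WT mice were C57BL/6 and PEP-619WW mice carried a CRISPR/Cas9-made arginine to tryptophan change at position 619 of *Ptpn22* in every cell on the same background. Per the methods, which describe 1 experiment, all mice of both genotypes were infected with LCMV-cl13, a lymphocytic choriomeningitis virus strain that persists. They were used at 8 days after infection. Spleen cells of 4 to 5 mice matched for age and sex were pooled per genotype, sorted as live CD45+ cells and run on the 10x Genomics 3' assay. The methods do not say whether this holds for both runs. Each genotype was 1 library in each run, and animals cannot be told apart.

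CD8 T cells recognise peptides on MHC class I through a T cell receptor, the CD3 chains and the CD8 coreceptor, and kill infected cells with granzymes and perforin. Naive and memory CD8 T cells express *Tcf7*, *Il7r* and the homing receptor *Ccr7*, whereas effector cells lower these and express *Gzma*, *Gzmb*, *Ccl5* and *Cx3cr1*. In persistent LCMV infection, virus-specific CD8 T cells take on inhibitory receptors such as PD-1 and LAG-3, under the control of the transcription factor TOX.

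The sample labels disagreed among themselves, and both libraries of run 2 stood apart from those of run 1. For both genotypes the labels name liver, the Jurkat cell line and tumor-infiltrating CD45+ cells, while their protocol and the study's methods name spleen. The barcodes of both run 2 libraries, 9539 in PEP-WT and 11029 in PEP-619WW, match in number the cells that the methods list for the spleen experiment, and those of run 1 (14821 and 8576) do not. Neither the labels nor the methods say where run 1 came from. In run 2, 34.9% of PEP-619WW and 52.8% of PEP-WT barcodes fell in a macrophage gate (*Csf1r* present, no *Cd3e*, *Cd8b1* or *Cd79a*), against 5.03% and 4.46% in run 1. At least 3 of 7 melanocyte genes were present in 47 PEP-619WW and 442 PEP-WT barcodes of run 2 and in 0 barcodes of either run 1 library. *Xist*, the RNA of the inactive X chromosome, was detected in 3 of 11029 PEP-619WW barcodes of run 2, where 5104 held a transcript of a Y-linked gene. In run 1 the PEP-619WW library held *Xist* in 5812 of 8576 barcodes and no Y-linked transcript. The PEP-WT library of run 2 held 2680 barcodes with *Xist* alone, 2431 with Y-linked transcripts alone and 283 with both. The pools of run 2 thus differed in these transcripts, which departs from the matching for sex in the methods. Run, sex of the mice, and any difference of tissue, infection or handling cannot be told apart, and every difference below is one between 2 libraries. A pair of libraries shared 19 to 49 barcode sequences, and no barcode was in the gate of a run 2 library and of another library.

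The gate took 2.56% (95% exact binomial interval 2.27 to 2.87) of PEP-619WW and 0.210% (0.128 to 0.324) of PEP-WT barcodes in run 2. In run 1 it took 7.12% (6.59 to 7.69) and 6.54% (6.15 to 6.95). Gated barcodes held a median of 3367 UMIs and 1367 genes in PEP-619WW run 2 and 6919 UMIs and 2296 genes in PEP-619WW run 1. The 2 PEP-619WW gates summed to 1575439 and 5181661 UMIs. All intervals given here cover counting error only, and since the UMIs of 1 barcode are not independent they are too narrow. With 1 library a side there was no replicate and no test was made.

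The label was checked with genes that the rule had not used. Levels are CPM, the UMIs of a gene per 1000000 UMIs summed over the gate, and log2 ratios are of PEP-619WW run 2 over PEP-619WW run 1 unless another pair is named. *Cd8a*, the second chain of the CD8 coreceptor, was present in 216 of the 282 barcodes (76.6%), and at least 1 UMI of *Cd8a*, *Cd3d*, *Cd3g*, *Trac*, *Trbc1* or *Trbc2* was present in 281. *Cd8a* stood at 444 CPM in PEP-619WW run 2, 384 in PEP-WT run 2, 368 in PEP-619WW run 1 and 363 in PEP-WT run 1, and *Trac*, the constant part of the T cell receptor alpha chain, at 494 CPM in PEP-619WW run 2, 486 in PEP-WT run 2, 636 in PEP-619WW run 1 and 580.1 in PEP-WT run 1. Thinned to 1000 UMIs a barcode, 37.3% (31.6 to 43.3) of run 2 and 27.2% (23.7 to 31) of run 1 gated barcodes held *Cd8a*, from 76.6% and 85.1% before thinning. Of macrophage-gate barcodes of the same libraries, which should lack the gene and had median depths of 6081.5 and 8153 UMIs, 0.0537% and 0 of 389 (which allows up to 0.771%) held it. That gate left out barcodes with *Cd3e* or *Cd8b1*, so its shares of T cell genes, here and below, may be lowered by its own rule. Of the 24 genes of the T cell receptor and CD8 list none was at least 2-fold higher and 1, *Trbc1*, was at least 2-fold lower in run 2 (*Trbc1* at 456 against 913 CPM). *Trbc1* shares most of its sequence with *Trbc2*, so its count is uncertain. The thinning left out 6 gated barcodes of run 2 and 9 of run 1.

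The gate genes themselves chose the barcodes and are given as a description. *Cd8b1* (GRCm38 chr6:71322788-71337494, plus strand) had a median of 3 UMIs a barcode in PEP-619WW run 2 and 5 in PEP-619WW run 1, and *Cd3e* (chr9:44998740-45009627, minus strand) a median of 2 and 3. Just inside the rule, 63 of the 282 barcodes held exactly 1 UMI of *Cd8b1* and 30 held exactly 1 of each gate gene. Just outside it, 40 barcodes held *Cd3e* and *Cd8a* but no *Cd8b1*, and 152 held *Cd8b1* but no *Cd3e*. Of the 394 run 2 barcodes with both genes, 51 also held *Cd4*, 70 *Csf1r* and 6 *Cd79a*, so the exclusion of *Csf1r* removed more of them than that of B cell RNA did. The targeted gene, *Ptpn22* (GRCm38 chr3:103859795-103912247, plus strand), stood at 261 CPM in PEP-619WW run 2, 149 in PEP-WT run 2, 257 in PEP-619WW run 1 and 212 in PEP-WT run 1. Its substitution is not read by UMI counts near the 3' end, so the level does not check the genotype.

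RNA of other cells was present in part of the gate. At least 3 genes of the macrophage, B cell or neutrophil list were found in 22 of the 282 barcodes (7.80%), which held 16.2% of the UMIs, and these are called mixed-content barcodes. In PEP-619WW run 1 there were 154 of 611 (25.2%), and in PEP-WT run 2 there were 15 of 20. A deeper barcode can reach 3 genes more readily, and these shares were not matched for depth. The median depths of the gates were 3367 UMIs in PEP-619WW run 2, 6919 in PEP-619WW run 1 and 5664 in PEP-WT run 2. The mixed-content barcodes of PEP-619WW run 2 had a median of 8949 UMIs against 3166.5 in the others. Their *Cd74* stood at 2506 CPM against 423, and their *Lyz2* at 612 against 56.0. The 14 macrophage markers summed to 375, 790, 227 and 365 CPM in the gates of PEP-619WW run 2, PEP-WT run 2, PEP-619WW run 1 and PEP-WT run 1, with the gate gene *Csf1r* and *Folr2* at 0 in PEP-619WW run 2. No barcode was removed as a doublet, and the part of this RNA in the results was not tested except where values without these barcodes are given.

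Across the 9936 genes with at least 20 UMIs in the 2 PEP-619WW gates together, called measured genes below, 635 were at least 2-fold higher in run 2 and 569 at least 2-fold lower (background shares 6.39% and 5.73%), and the median log2 ratio was 0.04. The lists differed. Lists of naive and homing genes, NK receptors and hypoxia genes held more genes at a higher level, and cytotoxic and interferon-stimulated lists held more at a lower level. Set against these shares, 7 of 15 naive and homing genes were at least 2-fold higher and 9 of 22 cytotoxic genes at least 2-fold lower. The shares of 6.39% higher and 5.73% lower apply to each list count of this contrast below. No list was tested against other genes.

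**Figure D1:**
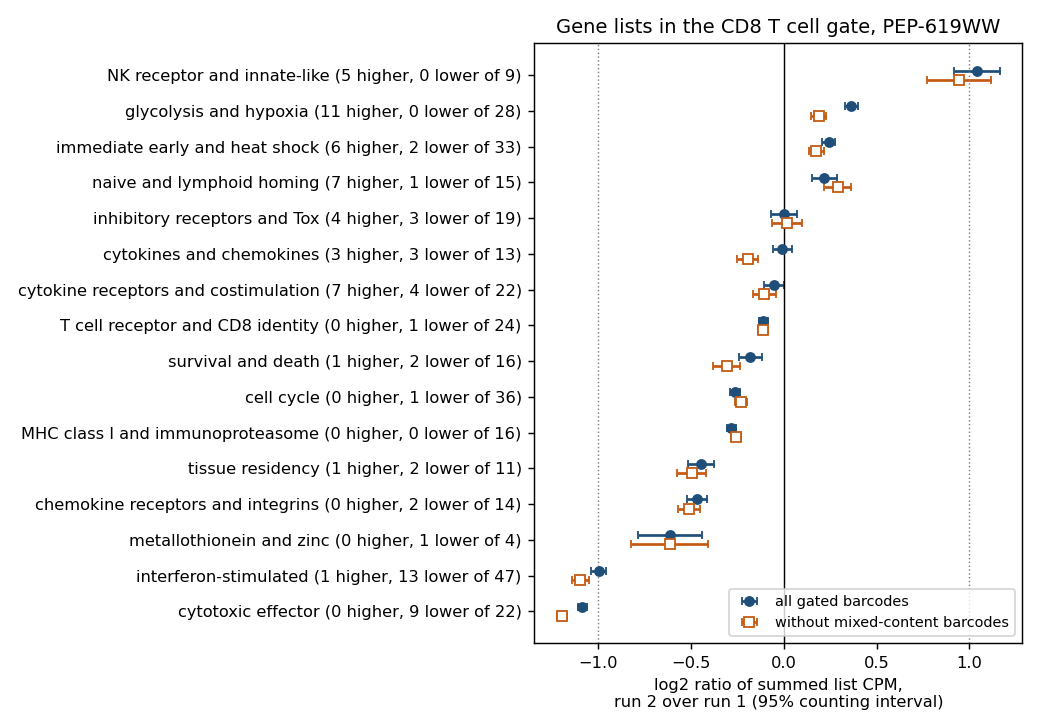
Log2 ratio (run 2 over run 1, PEP-619WW) of the summed CPM of each CD8 T cell list, with 95% counting intervals, for all gated barcodes (filled circles) and without mixed-content barcodes (open squares); dotted lines mark 2-fold. Cytotoxic effector genes lie lowest, at -1.09, a sum that leans on *Ccl5*, and NK receptor genes highest, at 1.04.

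Of 15 genes of naive cells and of homing to lymphoid tissue, 7 were at least 2-fold higher in run 2, among them *Ccr7*, *Tcf7*, *Il7r*, *Dapl1*, *Igfbp4* and *Bach2*, and *Klf2* was at least 2-fold lower. The list's median log2 ratio was 0.45. *Ccr7*, the receptor that guides T cells into lymph nodes, stood at 95.2 CPM in PEP-619WW run 2, 80.1 in PEP-WT run 2, 12.5 in PEP-619WW run 1 and 32.8 in PEP-WT run 1. Both run 2 libraries lay above both run 1 libraries, and the log2 ratio in PEP-619WW was 2.92 (95% interval 2.49 to 3.37). In PEP-619WW run 2 the mixed-content barcodes held 216 CPM of *Ccr7* and the other barcodes 71.9, and the log2 ratio without the former was 3.01. In PEP-WT run 2 all UMIs of *Ccr7* lay in the 15 mixed-content barcodes. Those held 93.1% of all UMIs of that gate, so each PEP-WT run 2 value here and below rests mainly on barcodes of mixed content. *Tcf7*, which encodes the transcription factor TCF-1 of naive and memory cells, stood at 161 CPM in PEP-619WW run 2, 21.4 in PEP-WT run 2, 53.5 in PEP-619WW run 1 and 137 in PEP-WT run 1. Here PEP-WT run 1 lay close to PEP-619WW run 2, and the low values were those of PEP-619WW run 1 and of the 20 PEP-WT barcodes of run 2. The log2 ratio of *Tcf7* was 1.59 (95% interval 1.34 to 1.84).

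*Il7r*, the receptor for the survival cytokine IL-7, stood at 268 CPM in PEP-619WW run 2, 48 in PEP-WT run 2, 81.2 in PEP-619WW run 1 and 113 in PEP-WT run 1. It was highest in PEP-619WW run 2, with a log2 ratio of 1.72 (95% interval 1.52 to 1.92). *Dapl1*, a gene of quiescent T cells, stood at 78.7 CPM in PEP-619WW run 2, 0 in PEP-WT run 2, 12 in PEP-619WW run 1 and 58 in PEP-WT run 1, a log2 ratio of 2.72 (95% interval 2.27 to 3.18) in PEP-619WW, while the 2 values of PEP-619WW run 2 and PEP-WT run 1 lay within 1.5-fold of each other. *Klf2*, a factor that keeps *S1pr1* on, went the other way, with 190.4 against 478 CPM. *Klf2* held 300 of the list's 2499 UMIs in run 2 and 2478 of 7064 in run 1, and the log2 ratio of the summed list was 0.22 (0.15 to 0.28). Against the gate of PEP-WT run 1 in place of PEP-619WW run 1, 3 of the 15 genes and not 7 were at least 2-fold higher, where 6.24% of all measured genes were. The genes differed in how many barcodes held them. *Tcf7* was in 116 of 282 in run 2 and 90 of 611 in run 1. *Il7r*, *Ccr7* and *Dapl1* were in 44.0%, 18.1% and 14.9% of run 2 and 26.5%, 6.38% and 2.95% of run 1 barcodes. *Igfbp4* was in 16 of the 57 run 2 barcodes of cluster 4 below and 2 of the other 225. After thinning, 18.5% (14.1 to 23.6) of run 2 and 5.32% (3.66 to 7.42) of run 1 gated barcodes held *Tcf7*, from 41.1% and 14.7% before it, and 0.295% and 0 of 389 (which allows up to 0.771%) of macrophage-gate barcodes did.

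**Figure D2:**
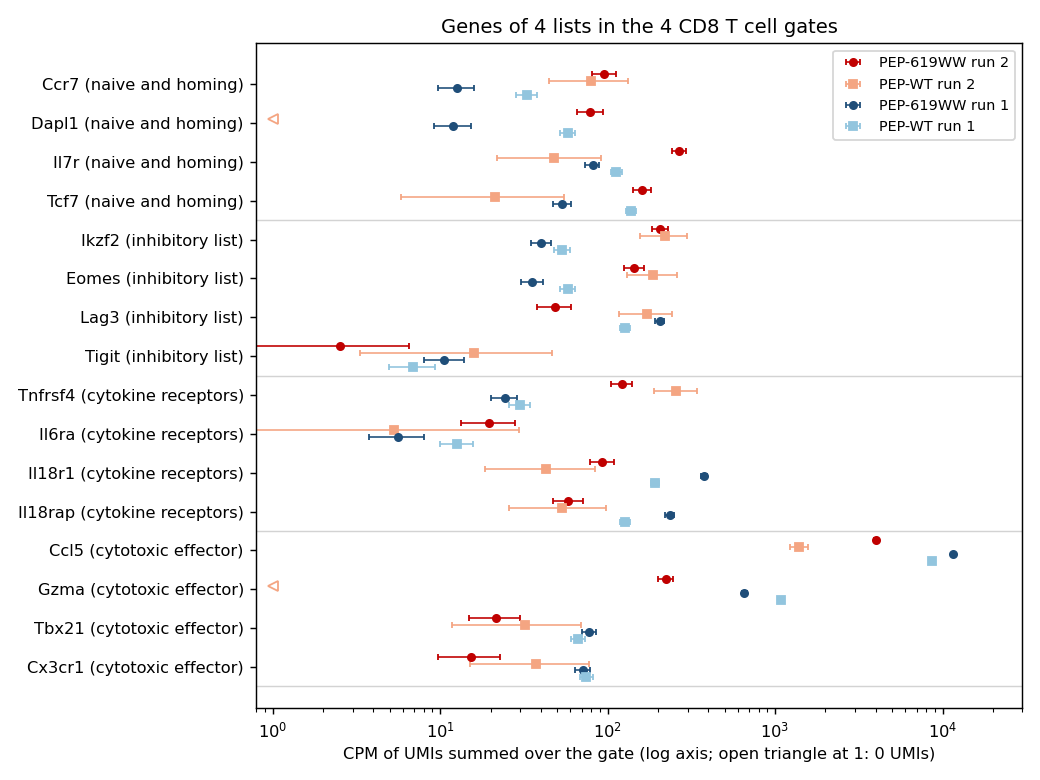
CPM of UMIs summed over the gate (log axis) for 16 genes of 4 lists in the 4 libraries, with 95% Poisson intervals; open triangles mark 0 UMIs. *Ccr7*, *Ikzf2*, *Eomes* and *Tnfrsf4* lie higher in both run 2 libraries than in both run 1 libraries, and *Il18r1*, *Il18rap*, *Ccl5* and *Gzma* lie lower.

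Of 22 cytotoxic effector genes, 9 were at least 2-fold lower in run 2 (*Gzma*, *Gzmb*, *Gzmm*, *Klrc1*, *Cx3cr1*, *S1pr5*, *Tbx21*, *Serpinb9* and *Ccl5*), 0 were at least 2-fold higher, and the median log2 ratio was -0.49. *Ccl5*, the chemokine RANTES stored by effector and memory CD8 T cells, stood at 4011 CPM in PEP-619WW run 2, 1388 in PEP-WT run 2, 11571 in PEP-619WW run 1 and 8636 in PEP-WT run 1. Both run 2 gates lay below both run 1 gates, with a log2 ratio of -1.53 (95% interval -1.57 to -1.49). After thinning, 63.4% (57.4 to 69.1) of run 2 and 87.2% (84.3 to 89.8) of run 1 gated barcodes held *Ccl5*, from 74.8% and 93.9% before it, against 4.41% and 11.1% of macrophage-gate barcodes. *Gzma*, a granule protease, stood at 222 CPM in PEP-619WW run 2, 0 in PEP-WT run 2, 655 in PEP-619WW run 1 and 1089 in PEP-WT run 1, a log2 ratio of -1.56 (95% interval -1.72 to -1.40). *Tbx21*, the effector transcription factor T-bet, stood at 21.6 against 77.6 CPM and *Cx3cr1*, a receptor of terminal effector cells, at 15.2 against 71. Their log2 ratios were -1.85 (-2.40 to -1.34) and -2.22 (-2.88 to -1.62), and each was lower than both run 1 libraries in both run 2 libraries. The summed list gave -1.09 (-1.11 to -1.06) and, without mixed-content barcodes, -1.20. *Ccl5* alone held 4011 of the list's 8851 CPM in PEP-619WW run 2 and 11571 of 18805 in PEP-619WW run 1, so the sum leans on this gene. Over the 13 alternatives 7 to 11 of the genes were at least 2-fold lower, while the number measured varied. After thinning it was 9 of 20, beside 7.66% of all measured genes. Without mixed-content barcodes it was 9 of 22, beside 5.68%, and against PEP-WT run 1 it was 7 of 22, beside 5.67%.

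Among cytokines and chemokines, 3 of 13 measured genes were at least 2-fold higher and 3 lower, beside 6.39% and 5.73% of all. *Ifng*, the antiviral cytokine interferon-gamma, stood at 88.9 CPM in PEP-619WW run 2, 133 in PEP-WT run 2, 319 in PEP-619WW run 1 and 227 in PEP-WT run 1, a log2 ratio of -1.84 (95% interval -2.10 to -1.59). It was present in 48 run 2 and 309 run 1 barcodes of the PEP-619WW gates. *Tnf* (5 against 46 UMIs) and *Tnfsf14* (8 against 73), both tumor necrosis factor family ligands, had log2 ratios of -1.48 (-3.17 to -0.16) and -1.47 (-2.74 to -0.42). *Csf1*, the macrophage growth factor, stood at 27.3 against 7.53 CPM, a log2 ratio of 1.86 (1.20 to 2.52), and at 0.30 without mixed-content barcodes.

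Receptors for cytokines and costimulation split. *Il2ra*, *Ifngr2*, *Il6ra*, *Il6st*, *Tnfrsf9*, *Tnfrsf4* and *Tgfbr1* were at least 2-fold higher, and *Il18r1*, *Il18rap*, *Il12rb2* and *Icos* at least 2-fold lower, of 22 measured. Against PEP-WT run 1, 4 of 22 were at least 2-fold higher, and after thinning 4 of 15, beside 6.24% and 6.22% of all measured genes. *Tnfrsf4*, the costimulatory receptor OX40, stood at 121 CPM in PEP-619WW run 2, 256 in PEP-WT run 2, 24.3 in PEP-619WW run 1 and 29.8 in PEP-WT run 1, and both run 2 gates lay above both run 1 gates, with a log2 ratio of 2.32 (95% interval 1.99 to 2.65). *Il18r1* and *Il18rap* encode the 2 chains of the IL-18 receptor. *Il18r1* stood at 92.7 CPM in PEP-619WW run 2, 42.7 in PEP-WT run 2, 377 in PEP-619WW run 1 and 193 in PEP-WT run 1, and *Il18rap* at 58.4 CPM in PEP-619WW run 2, 53.4 in PEP-WT run 2, 234 in PEP-619WW run 1 and 128 in PEP-WT run 1. For both chains the run 2 gates lay below the run 1 gates, with log2 ratios of -2.02 (-2.28 to -1.78) and -2.01 (-2.33 to -1.70). After thinning, 10.5% (7.15 to 14.7) of run 2 and 33.4% (29.6 to 37.3) of run 1 gated barcodes held *Il18r1*, from 33.7% and 84.3% before it, against 0.376% and 0.771% of macrophage-gate barcodes. *Il6ra*, the IL-6 receptor, rested on 31 and 29 UMIs, a log2 ratio of 1.81 (1.04 to 2.60).

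The list of inhibitory receptors and exhaustion factors split: 4 of 19 genes were at least 2-fold higher (*Cd244a*, *Eomes*, *Ikzf2* and *Cd200r1*), 3 at least 2-fold lower (*Lag3*, *Tigit* and *Cd160*), and the summed list gave 0.00 (-0.07 to 0.07). Without the mixed-content barcodes, 2 of 18 measured genes of the list, *Eomes* and *Ikzf2*, were at least 2-fold higher and 3 lower. Over all genes measured in that setting the shares were 5.30% and 5.68%. *Ikzf2*, the Ikaros family factor Helios, stood at 205 CPM in PEP-619WW run 2, 219 in PEP-WT run 2, 40.1 in PEP-619WW run 1 and 53.6 in PEP-WT run 1. *Eomes*, a T-box factor of memory and exhausted CD8 T cells, stood at 144 CPM in PEP-619WW run 2, 187 in PEP-WT run 2, 35.5 in PEP-619WW run 1 and 57.6 in PEP-WT run 1. For both factors the run 2 gates lay above the run 1 gates, with log2 ratios of 2.35 (2.10 to 2.61) and 2.02 (1.73 to 2.31), and they were spread over 86 and 91 of the 282 barcodes. After thinning, 15.2% (11.2 to 20) of run 2 and 4.32% (2.84 to 6.26) of run 1 gated barcodes held *Ikzf2*, from 30.5% and 12.6% before it, against 0.994% and 0.514% of macrophage-gate barcodes. *Lag3*, the inhibitory receptor for MHC class II, stood at 48.2 CPM in PEP-619WW run 2, 171 in PEP-WT run 2, 205 in PEP-619WW run 1 and 127 in PEP-WT run 1. PEP-619WW run 2 was the low library, and the 20 PEP-WT barcodes of run 2 lay between the run 1 gates. Its log2 ratio was -2.09 (-2.44 to -1.75), and that of *Tigit*, another inhibitory receptor, was -2.06 (-3.99 to -0.63) on 4 and 55 UMIs. *Pdcd1*, which encodes PD-1, stood at 129 against 93.6 CPM, and *Tox* at 157 against 119, log2 ratios of 0.47 (0.23 to 0.71) and 0.40 (0.18 to 0.61).

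NK receptors and innate-like genes were few. Of 9 measured in PEP-619WW, *Klre1*, *Klra7*, *Tyrobp*, *Fcgr3* and *Tcrg-C1* were at least 2-fold higher and none lower. Over all measured genes 6.39% were higher. The summed list gave 1.04 (0.92 to 1.17) in PEP-619WW and -0.10 (-0.52 to 0.29) in PEP-WT, and in the other PEP-619WW gates 2.21 (1.98 to 2.45) in CD4 T cells, -0.23 (-0.31 to -0.14) in NK cells and 2.50 (2.42 to 2.58) in B cells. *Klre1*, a lectin-like NK receptor, stood at 69.2 CPM in PEP-619WW run 2, 53.4 in PEP-WT run 2, 14.3 in PEP-619WW run 1 and 20.5 in PEP-WT run 1, a log2 ratio of 2.28 (95% interval 1.84 to 2.72). *Tyrobp*, the adaptor DAP12 of NK and myeloid cells, stood at 157 against 46.3 CPM, and *Fcgr3*, an Fc receptor, at 34.9 against 6.95, and both were abundant in the macrophage gate of run 2 (2433 and 429 CPM). Without mixed-content barcodes their log2 ratios were 2.53 and 1.44. *Klra3*, an Ly49 receptor, stood at 10.2 against 17.4 CPM, and against the 7.69 of PEP-WT run 1 it was higher. Ly49 genes share much sequence, so their counts are uncertain. The defining NK gene *Ncr1* had 15 UMIs in the run 2 gate and 0 in that of run 1.

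Of 47 measured interferon-stimulated genes, 33 lay within 2-fold of run 1. The others were 13 that were at least 2-fold lower, among them *Irf7*, *Zbp1*, *Oas1a*, *Usp18*, *Iigp1* and *Ly6c2*, and 1, *Rsad2*, that was at least 2-fold higher. The list's median log2 ratio was -0.68 and its sum gave -0.998 (-1.04 to -0.96). Of the summed CPM, *Ly6c2* alone held 515 of 3737 in PEP-619WW run 2 and 1881 of 7463 in PEP-619WW run 1. *Ly6c2*, a surface protein of activated T cells, stood at 515 CPM in PEP-619WW run 2, 117 in PEP-WT run 2, 1881 in PEP-619WW run 1 and 1624 in PEP-WT run 1, with both run 2 gates below both run 1 gates and a log2 ratio of -1.87 (95% interval -1.97 to -1.76). *Usp18*, which removes the ISG15 tag, stood at 13.3 against 37.6 CPM and the GTPase gene *Iigp1* at 12.7 against 34.9, log2 ratios of -1.50 (-2.22 to -0.84) and -1.46 (-2.21 to -0.79). *Rsad2*, the antiviral enzyme viperin, stood at 52.7 against 13.7 CPM, but 42.2% of its 83 UMIs were in 1 barcode. Without mixed-content barcodes *Rsad2* was lower, with a log2 ratio of -1.03. Against the gate of PEP-WT run 1, 29 of 48 measured genes of the list were at least 2-fold lower, where 5.67% of all measured genes were. Without mixed-content barcodes 18 of 46 were, beside 5.68% of all, and after thinning 13 of 41, beside 7.66% of all.

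Of 16 genes of MHC class I presentation, of which interferons are known inducers, none passed 2-fold in either direction. The median log2 ratio was -0.52 and that of the summed list -0.28 (-0.31 to -0.26), while *B2m*, the light chain of MHC class I, had 0.04 (-0.02 to 0.09). *H2-Q4*, *Psmb10*, *H2-T23* and *Tap1* had log2 ratios from -0.82 to -0.77. The peptide transporter gene *Tap1* stood at 163 CPM in PEP-619WW run 2, 203 in PEP-WT run 2, 278 in PEP-619WW run 1 and 242 in PEP-WT run 1, and PEP-619WW run 2 was the lowest of the 4.

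Of 28 measured genes of glycolysis and of the response to low oxygen, 11 were at least 2-fold higher, 17 lay within 2-fold and 0 were at least 2-fold lower, with a median log2 ratio of 0.73 and a summed list at 0.36 (0.33 to 0.40), or 0.07 from the mean of per-barcode CPM. *Bnip3*, a hypoxia-induced mitophagy gene, stood at 31.1 CPM in PEP-619WW run 2, 58.7 in PEP-WT run 2, 2.12 in PEP-619WW run 1 and 0.961 in PEP-WT run 1, above both run 1 gates in both run 2 gates, with a log2 ratio of 3.87 (95% interval 2.91 to 4.97). *Slc2a1*, the glucose transporter GLUT1, *P4ha1*, a collagen prolyl hydroxylase, and *Slc16a3*, a lactate transporter, had log2 ratios of 1.72 (1.24 to 2.20), 1.80 (1.30 to 2.31) and 1.98 (1.34 to 2.62). The macrophage gate of run 2 held all 4 at a higher level, from 129.9 CPM of *P4ha1* to 187 of *Bnip3*. Without mixed-content barcodes 4 of 26 measured genes of the list were at least 2-fold higher, where 5.30% of all measured genes were, and after thinning 1 of 19, where 6.22% of all were. The log2 ratio of *Bnip3* without these barcodes was 2.61.

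Heat shock and immediate early genes held 6 of 33 at least 2-fold higher and 2, *Nr4a1* and *Dusp2*, at least 2-fold lower. Over all measured genes these shares were 6.39% and 5.73%. *Hspa1b* and *Hspa1a* encode the inducible chaperone HSP70 and are near-identical copies, so reads may be split between them. *Hspa1b* had 255 UMIs in run 2 and 3 in run 1, a log2 ratio of 8.13 (95% interval 6.56 to 10.41), and *Hspa1a* 128 and 4, a log2 ratio of 6.72 (95% interval 5.33 to 8.62). The UMIs lay in 33 and 28 run 2 barcodes, and 1 barcode held 60% and 38.3% of them. *Atf3* and *Nr4a3*, stress- and receptor-induced transcription factors, had log2 ratios of 2.62 (1.86 to 3.42) and 1.72 (1.11 to 2.33) in 13 and 19 barcodes.

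Of 36 cell cycle genes 0 were at least 2-fold higher and 1, *Ccnb2*, was lower. The summed list gave -0.26 (-0.29 to -0.24), or -0.50 from the mean of per-barcode CPM. The mitotic cyclin *Ccnb2* stood at 48.9 CPM in PEP-619WW run 2, 112 in PEP-WT run 2, 103 in PEP-619WW run 1 and 124 in PEP-WT run 1, lowest in PEP-619WW run 2. *H2afz*, *Hmgn2* and *Aurkb*, a histone variant, a nucleosome-binding protein and a mitotic kinase, had log2 ratios of -0.86 (-0.93 to -0.78), -0.66 (-0.89 to -0.43) and -0.49 (-0.92 to -0.09). *Mki67* stood at 272 against 264 CPM. It was in 21.3% of run 2 and 35.4% of run 1 gated barcodes, and after thinning in 9.06% and 13.6%.

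Of the remaining lists, adhesion and migration genes held 2 of 14 at least 2-fold lower, *Itgb7* and *S1pr4*, and 0 higher. Over all measured genes 5.73% were lower and 6.39% higher. The integrin chain *Itgb7* stood at 97.1 CPM in PEP-619WW run 2, 37.4 in PEP-WT run 2, 246 in PEP-619WW run 1 and 208 in PEP-WT run 1, and the sphingosine phosphate receptor *S1pr4* at 37.4 CPM in PEP-619WW run 2, 32 in PEP-WT run 2, 131 in PEP-619WW run 1 and 114 in PEP-WT run 1. In both cases the run 2 gates lay below the run 1 gates, and the log2 ratios were -1.34 (-1.59 to -1.10) and -1.81 (-2.22 to -1.42). The integrin chain *Itga4* and the oxysterol receptor *Gpr183* had log2 ratios of -0.98 (-1.11 to -0.85) and 0.94 (0.62 to 1.25). In the residency list *Itgae* was at least 2-fold higher and *Hic1* and *Ctla2a* lower, of 11 measured. *Ctla2a*, a protease inhibitor gene of activated T cells, stood at 427 against 989 CPM, and *Itga1*, *Runx3* and *Cd69* had log2 ratios of -0.61 (-1.13 to -0.13), 0.61 (0.45 to 0.76) and 0.46 (0.24 to 0.68). The direction of *Itga1* depended on the setting: its log2 ratio was 0.17 after thinning and 0.48 against PEP-WT run 1.

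Survival genes held 1 of 16 higher, *Bcl2a1a*, and 2 lower, *Bcl2l11* and *Pim1*, beside 6.39% and 5.73% of all measured genes. *Bcl2l11*, which encodes the death factor BIM, stood at 66 CPM in PEP-619WW run 2, 48 in PEP-WT run 2, 162 in PEP-619WW run 1 and 91.3 in PEP-WT run 1, a log2 ratio of -1.30 (95% interval -1.61 to -1.002). The kinase gene *Pim1* had -1.05 (-1.24 to -0.86), *Bak1* -0.58 (-0.96 to -0.22) and *Birc2* 0.65 (0.34 to 0.96), each a log2 ratio, and that of *Birc2* was -0.01 after thinning. Metallothionein genes, of which the study used *Mt2* in its own gate, held 1 of 4 lower: *Mt2* stood at 28.6 CPM in PEP-619WW run 2, 5.34 in PEP-WT run 2, 76.2 in PEP-619WW run 1 and 44.4 in PEP-WT run 1, a log2 ratio of -1.42 (95% interval -1.89 to -0.97). *Mt1* and its regulator *Mtf1* had -0.49 (-0.70 to -0.29) and -0.44 (-1.06 to 0.14), and *Mt1* lay at 0.58 against PEP-WT run 1. In the identity list the log2 ratio of *Cd3g* was 0.68 (0.60 to 0.76).

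Outside the lists, the 10 genes furthest above run 1 rested largely on few barcodes. *Arg1*, the arginase of alternatively activated macrophages, had 194 UMIs in 14 run 2 barcodes and 1 UMI in run 1, a log2 ratio of 9.32 (95% interval 6.82 to 14.63), and stood at 1287 CPM in the macrophage gate of run 2. *Thbs1*, *Basp1*, *Cxcl2* and *Ccl22* lay in 16, 31, 13 and 9 barcodes, with log2 ratios of 5.97 (4.95 to 7.20), 4.19 (3.64 to 4.78), 5.32 (4.82 to 5.87) and 6.32 (4.91 to 8.22). *Cxcl3* had 115 UMIs in 11 barcodes, of which 1 held 67.8%, and 0 UMIs in run 1, at least 126-fold higher against a floor of 3 UMIs in that gate. Without mixed-content barcodes the log2 ratio of *Arg1* was 4.44 and that of *Thbs1* 2.44, while that of *Cxcl2* was 6.25.

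The granzymes *Gzme* and *Gzmd*, which share much sequence, had 185 and 117 UMIs in 4 and 3 run 2 barcodes, against 28 and 25 UMIs in 1 run 1 barcode each. Their log2 ratios were 4.44 (3.86 to 5.07) and 3.94 (3.31 to 4.63), and 1 run 2 barcode held 88% of the *Gzmd* UMIs. *Tff1*, a trefoil peptide of mucosal epithelium, was in 29 of 282 run 2 and 6 of 611 run 1 barcodes. It stood at 87 CPM in PEP-619WW run 2, 101 in PEP-WT run 2, 1.35 in PEP-619WW run 1 and 2.56 in PEP-WT run 1, so both run 2 gates lay above both run 1 gates, with a log2 ratio of 6.01 (95% interval 4.93 to 7.35). It stood at 0.413 CPM in the macrophage gate of run 2, and its log2 ratio without mixed-content barcodes was 6.05. The Y-linked helicase gene *Ddx3y* was in 72 run 2 barcodes and had 0 UMIs in run 1, at least 119.5-fold higher.

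**Figure D3:**
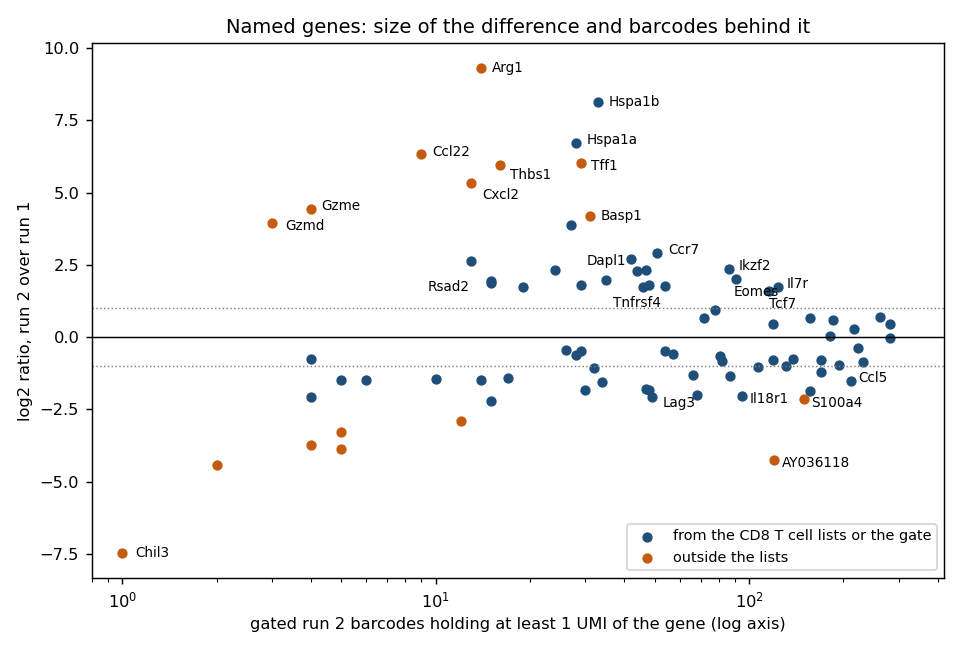
Log2 ratio (run 2 over run 1, PEP-619WW) of each named gene with UMIs in both gates, against the number of the 282 run 2 barcodes with at least 1 UMI of it (log axis); dotted lines mark 2-fold. *Arg1*, *Ccl22*, *Gzme* and *Gzmd* lie at 3 to 14 barcodes, while *Tcf7*, *Il7r*, *Ikzf2* and *Eomes* lie at 86 to 124.

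Among the 10 genes furthest below run 1 outside the lists, *Xist* had 0 UMIs against 4939, at least 501-fold lower, and its antisense gene *Tsix* 2 against 142, a log2 ratio of -4.43 (-7.49 to -2.55). The sources used here do not state how strand was handled in counting, so the split of reads between *Xist* and *Tsix* is uncertain. The neutrophil and myeloid genes *Lcn2*, *Chil3* and *Slpi* had 0, 1 and 11 UMIs against 348, 587 and 349, and *Lcn2* was at least 35.3-fold lower. *Chil3* and *Slpi* had log2 ratios of -7.48 (-12.79 to -5.00) and -3.27 (-4.29 to -2.41). *AY036118*, which lies in ribosomal RNA sequence, was lower in each lymphocyte gate, with log2 ratios of -4.26 in CD8 T cells, -4.16 in CD4 T cells, -4.46 in NK cells and -3.66 in B cells. The small nucleolar RNA host gene *Snhg9* had -3.72 (-5.61 to -2.33).

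*S100a4*, a calcium-binding protein of effector and memory T cells, was the most abundant of these 10 genes. It stood at 892 CPM in PEP-619WW run 2, 801 in PEP-WT run 2, 3946 in PEP-619WW run 1 and 2373 in PEP-WT run 1, so both run 2 gates lay below both run 1 gates, with a log2 ratio of -2.14 (95% interval -2.22 to -2.07). After thinning, 31.9% (26.4 to 37.7) of run 2 and 81.9% (78.6 to 84.9) of run 1 gated barcodes held *S100a4*, from 53.2% and 91.8% before it, while 77.9% and 56% of macrophage-gate barcodes did, a cell type with *S100a4* of its own. *Anxa1*, an annexin, and *Rom1*, known from the retina, had log2 ratios of -2.89 (-3.78 to -2.13) and -3.86 (-5.32 to -2.72). *Anxa1* was in 12 run 2 and 174 run 1 barcodes, and *Rom1* in 5 and 190.

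Markers of other cells moved with the run as well. All 7 measured plasma cell genes and 5 of 6 B cell genes were at least 2-fold lower in run 2, the plasma cell list at 1.9 against 1589.8 CPM, with *Jchain*, *Mzb1*, *Derl3*, *Ighg2c*, *Ighg1* and *Tnfrsf17* at 0 in run 2. The B cell list stood at 259.6 against 4299 CPM, with *Ms4a1*, *Ebf1* and *Pax5* among the genes at 0 in run 2. All 5 measured erythroid genes and 6 of 7 neutrophil genes were at least 2-fold lower, with *Ly6g*, *Camp* and *Ngp* at 0, and the remaining neutrophil gene, *Cxcr2*, was at least 2-fold higher. In the other direction, 5 of 7 MHC class II genes and 4 of 10 macrophage genes were at least 2-fold higher. *H2-Aa* stood at 423 CPM in PEP-619WW run 2, 74.7 in PEP-WT run 2, 79.7 in PEP-619WW run 1 and 119 in PEP-WT run 1. Its log2 ratio was 2.41 (95% interval 2.23 to 2.59) and 2.88 without mixed-content barcodes. Of its 666 UMIs in PEP-619WW run 2, 574 lay in 1 group of 25 barcodes at a clustering resolution of 1.0, 17 of them of mixed content. Without mixed-content barcodes the log2 ratio of the summed list was -2.18 for B cell genes (from -4.05) and -0.81 for neutrophil genes (from -2.47), with 1 of 3 and 1 of 3 measured genes at least 2-fold lower. Of macrophage genes 1 of 7 was then higher and 1 lower. The B cell, neutrophil and macrophage lists themselves chose the barcodes left out, so their levels fall by that choice. For these lists the values are a description only. Of the CD4 T cell markers, *Foxp3*, *Cxcr5*, *Bcl6*, *Izumo1r* and *Tbc1d4* were at least 2-fold higher and *Zbtb7b* lower, of 6 measured, with *Cd4* at 0 by the rule and the list at 125, 128, 36.7 and 47.1 CPM in the 4 gates. *Foxp3* had 18 UMIs in the run 2 gate. No melanocyte or hepatocyte gene reached 20 UMIs, and the gate held 10 and 1 UMIs of those lists. *Hmox1* was higher and *Vcam1* lower in the Kupffer cell and red pulp macrophage list, *Flt3* higher and *Itgax* lower in the dendritic cell list, and the 1 stromal or endothelial gene measured did not pass 2-fold. The part of this RNA in the lists above was not tested beyond the values without mixed-content barcodes.

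The same contrast was taken in the other lymphocyte gates of the PEP-619WW libraries, which held 280 and 172 CD4 T cells, 415 and 29 NK cells, and 669 and 4219 B cells in runs 2 and 1. These gates come from the same 2 libraries, so the values stand side by side and are not separate evidence. The summed interferon-stimulated genes were lower in each: log2 ratios were -0.998 (-1.04 to -0.96) in CD8 T cells, -0.98 (-1.02 to -0.94) in CD4 T cells, -0.70 (-0.83 to -0.56) in NK cells and -1.32 (-1.37 to -1.28) in B cells. The glycolysis and hypoxia list was higher in each, at 0.36, 0.70, 0.83 and 0.85 in the same order. In CD8 T cells it was 0.19 without mixed-content barcodes. The MHC class II list was also higher in each, at 1.91, 4.15, 3.01 and 1.26 in the same order. In PEP-619WW run 2 that list stood at 1986 CPM in CD8 T cells, 3589 in CD4 T cells and 2249 in NK cells. Other lists differed in sign between the gates. For cytotoxic genes the log2 ratio was -1.09 (-1.11 to -1.06) in CD8 T cells, -0.03 (-0.09 to 0.03) in CD4 T cells, -1.53 (-1.56 to -1.49) in NK cells and 1.62 (1.55 to 1.69) in B cells. For naive and homing genes it was 0.22 (0.15 to 0.28) in CD8 T cells, -0.87 (-0.95 to -0.78) in CD4 T cells, -0.08 (-0.26 to 0.10) in NK cells and 1.30 (1.26 to 1.35) in B cells.

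Single genes also differed between the gates. *Tcf7* had log2 ratios of 1.59 in CD8, -2.15 in CD4 T cells and 1.23 in NK cells. *Eomes* had 2.02 in CD8 T cells, -2.97 in CD4 T cells and 0.92 in NK cells, and *Cx3cr1* -2.22 in CD8 and 0.65 in CD4 T cells. The cell cycle list gave -0.26 in CD8 T cells, 0.77 in CD4 T cells, 0.71 in NK cells and -1.33 in B cells. *Ifng* and *Il18r1* lay below 0 in these 3 T and NK cell gates, at -1.68 and -1.30 in CD4 T cells and -1.10 and -1.06 in NK cells, and *Lag3* at -1.88 in CD4 T cells. In the B cell gate *Tcf7*, *Eomes*, *Ifng* and *Il18r1* had 1.31, 4.604, 0.80 and 1.33, on 8 to 25 UMIs in run 2. The NK values rest on 29 barcodes in run 1, with 8 UMIs of *Tcf7* and 15 of *Ifng*. In CD4 T cells the value of *Eomes* rests on 5 UMIs in run 2.

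**Figure D4:**
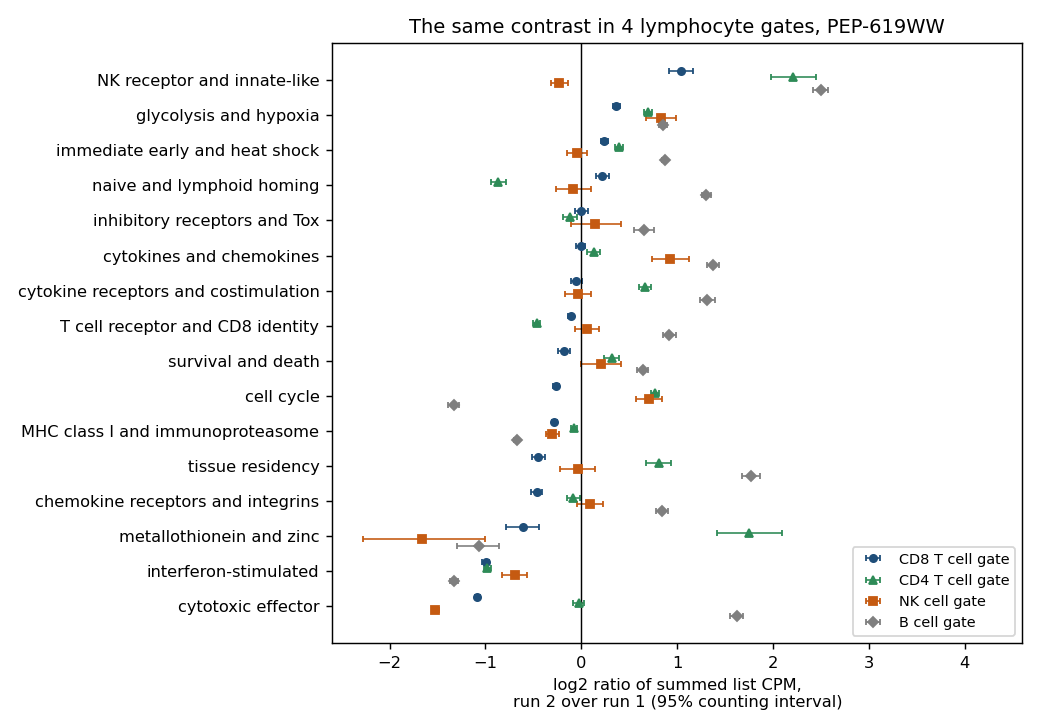
Log2 ratio (run 2 over run 1, PEP-619WW) of the summed CPM of each list in the CD8 T cell, CD4 T cell, NK cell and B cell gates, with 95% counting intervals. All 4 gates lie below 0 for interferon-stimulated genes and above 0 for glycolysis and hypoxia genes, whereas naive and homing genes lie above 0 in CD8 T cells and B cells and below 0 in CD4 T cells.

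Within the PEP-619WW library of run 2, the CD8 T cells were set beside its CD4 T cells and NK cells. The gates used *Cd3e*, *Cd4*, *Cd8b1*, *Ncr1*, *Csf1r* and *Cd79a*, which are left out. *Prf1*, the pore protein perforin, stood at 269.8 CPM in CD8 T cells, 25 in CD4 T cells and 898 in NK cells, and *Gzmb* at 676 CPM in CD8 T cells, 216 in CD4 T cells and 946 in NK cells. For both the CD8 T cells lay between the other gates. *Eomes* stood at 144 CPM in CD8 T cells, 2.78 in CD4 T cells and 285 in NK cells, *Ikzf2* at 205 CPM in CD8 T cells, 875 in CD4 T cells and 69.3 in NK cells and *Tnfrsf4* at 121 CPM in CD8 T cells, 687 in CD4 T cells and 9.81 in NK cells. *Eomes* was thus low in CD4 T cells, where *Ikzf2* and *Tnfrsf4*, known in regulatory T cells, were highest.

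*Dapl1* stood at 78.7 CPM in CD8 T cells, 10.6 in CD4 T cells and 1.23 in NK cells, and the protease inhibitor gene *Serpine2* at 65.4 CPM in CD8 T cells, 2.78 in CD4 T cells and 8.59 in NK cells, and for both the CD8 T cells were the high gate. Their log2 ratios of CD8 over CD4 T cells were 2.90 (2.20 to 3.68) and 4.56 (3.29 to 6.21). *Tff1* stood at 87 CPM in CD8 T cells, 57.8 in CD4 T cells and 0 in NK cells. Both T cell gates held it, and the 415 NK cells held 0 UMIs. *Havcr2*, the inhibitory receptor TIM-3, stood at 59.7 CPM in CD8 T cells, 17.8 in CD4 T cells and 6.13 in NK cells, and *Pdcd1* at 129 CPM in CD8 T cells, 97.8 in CD4 T cells and 2.45 in NK cells. *Xcl1*, a chemokine for cross-presenting dendritic cells, stood at 112 CPM in CD8 T cells, 32.2 in CD4 T cells and 1228 in NK cells, highest in NK cells.

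Clustering split the 282 barcodes into 5 clusters of 69, 68, 57, 57 and 31. Clusters were made from all genes but the gate, immunoglobulin, hemoglobin, mitochondrial and T cell receptor variable genes, so their leading genes are a description. Cluster 4, of 57 barcodes (20.2%), held all 8 naive markers among its 50 leading genes and was called naive-like. Among its 5 leading genes were *Igfbp4* (175 against 2.15 CPM), *Satb1* (689 against 77.2 CPM), *Rflnb* (164 against 7.87 CPM) and *Pik3ip1* (215 against 15.7 CPM). *Pdcd1* and *Mki67* had no UMI there, and *Gzmb* stood at 5.65 CPM. The median depth was 3097 UMIs, and no barcode of it was of mixed content. Clustered after thinning to 1000 UMIs, the cluster with most naive markers held 35.9% of the barcodes.

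Clusters 1, 2 and 5 were left unnamed. Among the 5 leading genes of cluster 1 were *Il7r* (753 against 191 CPM), *Trp53inp1* (107 against 28.7 CPM), *Foxo1* (139 against 43.4 CPM) and *Gpr183* (199.9 against 68.4 CPM), and it held *Ccl5* at 6146 CPM. *Il7r* was higher still in the naive-like cluster 4, at 842 CPM. Cluster 1 held 3 naive markers among its 50 leading genes, but *Ctla4*, *Icos* and *Il18r1* were among its first 10. Cluster 2 was led by *Ccl5* (14782 against 2389 CPM), *Gzma* (786 against 137 CPM), *Itga1* (112 against 13.9 CPM), *Itgax* (87.3 against 8.76 CPM) and *Ccr2* (354 against 89.8 CPM), and *Ccr7* had no UMI in it. It held 1 of the effector and 2 of the residency markers among its 50 leading genes. Cluster 5, of 31 barcodes with a median of 8119 UMIs, was led by *Nr4a2* (186 against 42.1 CPM), *Il1r2* (107 against 25.4 CPM), *Gm45716* (91.4 against 23 CPM), *Rgs16* (154 against 51.7 CPM) and *Cstf2* (59.9 against 13.5 CPM). *Pdcd1*, *Eomes*, *Ikzf2* and *Tnfrsf4* stood at 205, 214, 325 and 214 CPM there, each the highest of the 5 clusters.

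Cluster 3 was the deepest, with a median of 10267 UMIs, and held 20 of the 22 mixed-content barcodes among its 57. It was led by *Cxcl2* (619.9 against 5.46 CPM), *Hist1h1b* (1108 against 39.3 CPM), *H2-Eb1* (838 against 30.6 CPM), *Gzme* (280.4 against 0 CPM) and *H2-Aa* (944 against 47 CPM), a mix of myeloid, proliferation and granzyme genes. Cluster 3 held 5 of 7 cycling markers among its 50 leading genes, enough for a name, but given this mix it stayed unnamed. *Gzme* was present in 4 of the 57 barcodes. At a resolution of 1.0 it separated into 2 groups. One, of 33 barcodes with 3 of mixed content, held 6 of 7 cycling markers among its 50 leading genes, was called cycling-like, and was led by *Gzme* (457 against 0 CPM), *Gzmc* (501 against 10.3 CPM), *Gzmd* (289 against 0 CPM), *Hist1h1b* (1558 against 116 CPM) and *Hist1h2ae* (506 against 29.1 CPM). The 3 granzyme values rested on few members: *Gzme*, *Gzmc* and *Gzmd* were present in 4, 4 and 3 of the 33 barcodes, and 1 barcode held 91 of the 215 *Gzmc* UMIs of the gate. *Mki67* stood at 726 CPM and *Gzmb* at 1568 in it. The other, of 25 barcodes with 24 from cluster 3 and 17 of mixed content, held *Arg1* at 726 CPM, *Cd74* at 3716 and *H2-Aa* at 2229, with *Cd8b1* at 458. *Tff1* stood at 142 CPM in cluster 3 and 126 in cluster 5, and at 4.65 or 9.7 in clusters 1 and 2.

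**Figure D5:**
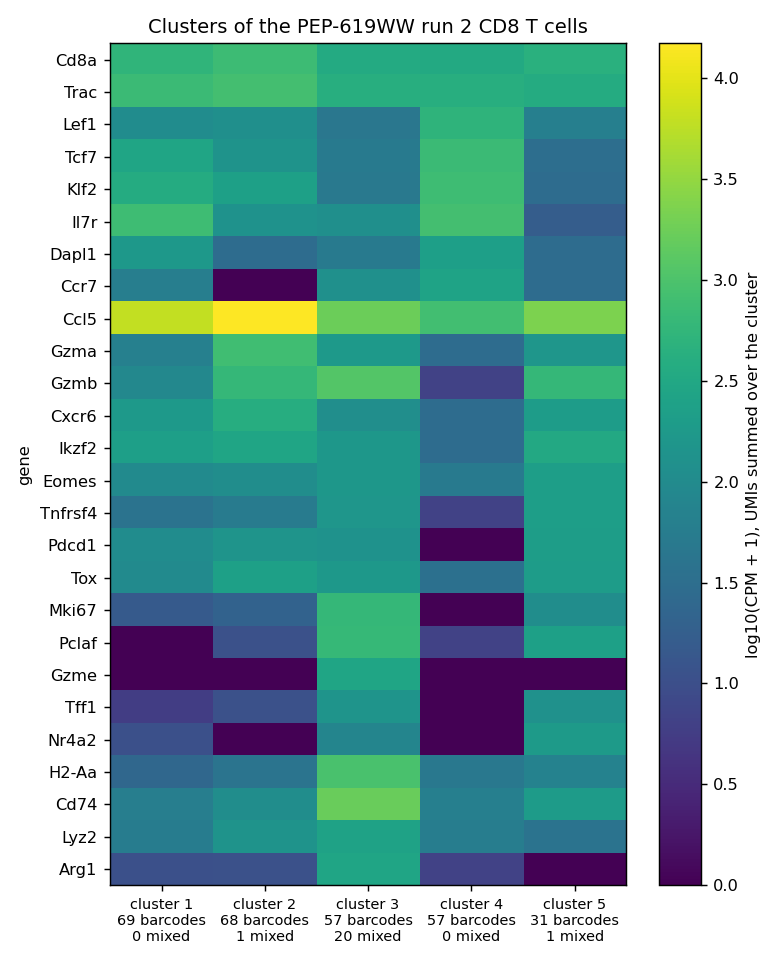
Level of selected genes, as log10(CPM + 1) of summed UMIs (color), in the 5 clusters of the PEP-619WW run 2 gate, with barcodes and mixed-content barcodes under each. *Lef1*, *Tcf7* and *Klf2* are highest in cluster 4, *Ccl5* and *Gzma* in cluster 2, and *Mki67*, *Gzme*, *H2-Aa* and *Arg1* in cluster 3.

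When the 282 barcodes were clustered together with the 611 of PEP-619WW run 1 and the 20 of PEP-WT run 2, 8 clusters formed and several came mostly from 1 library. A cluster led by *Il7r*, *Pmepa1*, *Eif2s3y* and *Tcf7* held 137 run 2 and 4 run 1 barcodes of PEP-619WW. One with *Igfbp4* and *Rflnb* among its leading genes held 41 run 2 barcodes and none of run 1. Conversely, a cluster led by *Gzma*, *Ccl5* and *S1pr1* held 11 run 2 and 211 run 1 barcodes, and one led by *Nr4a1*, *Ifng* and *Dusp5* held 2 and 120. One with *Rfc3*, *Mcm5* and *Pcna* among its leading genes held 2 and 62. The cluster led by *Gzmc* and histone genes was shared, with 57 and 104 barcodes of PEP-619WW and 14 of the 20 of PEP-WT. Since sex-linked and ribosomal RNA genes were among the leading genes, library and cell state cannot be told apart in such clusters, and these numbers are a description.

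The 20 PEP-WT barcodes of run 2 summed to 187324 UMIs, of which 93.1% were in mixed-content barcodes. They ranged from 1119 to 27441 UMIs, with a median of 5664. *Gzma* and *Dapl1* had 0 UMIs, while *Ikzf2*, *Eomes* and *Tnfrsf4* stood at 219, 187 and 256 CPM. The cell cycle list stood at 13415 CPM against 11008 in PEP-WT run 1, and the naive and homing list at 432 against 1698. With so few barcodes no comparison of the genotypes within run 2 was made.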

How the data were processed

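Single-cell RNA was measured in sorted CD45+ cells of PEP-WT and PEP-619WW mice, with 1 library per genotype in each of 2 runs, mapped by the genotype entry of the sample labels. The authors deposited counts: the number of UMIs that each barcode held of each of 32285 genes, without normalization. Their methods name Cell Ranger with the mm10 transcriptome, and the submitters' processing notes name version 6.0.0 of Cell Ranger, a different version from that in the methods. Gene identifiers were matched to symbols (32158 of 32285), and coordinates are those of GENCODE vM21 on GRCm38, the assembly behind mm10.

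UMIs were summed over the gated barcodes and scaled to CPM (counts per 1000000 UMIs). Ratios carry exact 95% intervals for the share of 1 of 2 Poisson counts, shares Clopper-Pearson intervals. Genes with at least 20 UMIs over both gates were compared with a limit of 2-fold. A gene at 0 was compared against a floor of 3 UMIs in its gate. The script was tested on simulated data. The gate, the 16 CD8 T cell lists and the 12 lists of other cells were chosen with earlier results of these data known. Named genes were the 4 with the largest log2 ratio in either direction per CD8 T cell list (at least 50 UMIs), and 10 higher and 10 lower outside the lists by the interval bound nearest to no change (at least 100 UMIs), without immunoglobulin, hemoglobin, mitochondrial, ribosomal protein, T cell receptor variable and unnamed genes. The gate genes, *Cd8a*, *Trac*, *Ptpn22* and the 5 leading genes of each cluster were added. Other genes were chosen after their values were seen. Values of some genes that the rule names are not reported here. All barcodes were used, and no doublet caller was run. Clusters used Leiden at a resolution of 0.5, 15 neighbors, 10 principal components and 1000 variable genes on ln(1 + counts per 10000). Leading genes had at least 30 UMIs and were ranked by the ratio of CPM with 20 added, and a name needed at least 3 of its markers among the 50 leading genes, a limit set after the data were seen. Clusters 1 and 3 met this limit but were left unnamed because of their other leading genes, so the limit alone did not decide the names. Thinning drew 1000 UMIs per barcode. The tools were scanpy 1.11.5, leidenalg 0.10.2, scipy 1.17.1, numpy 2.4.6 and matplotlib 3.10.9, under python 3.11.15. In total 13 alternatives were tried for the counts of genes.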

Additional observations from a re-analysis of the deposited data

Results flagged for a closer look

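For 5 lists the log2 ratio of run 2 over run 1 lay on opposite sides of 0 in the 2 genotypes, with counting intervals that left out 0 on both sides. The difference between genotypes was not tested, since each value compares 1 library with 1 library, and the PEP-WT value rests on 20 run 2 barcodes, 15 of them of mixed content. The naive and lymphoid homing list gave 0.22 (0.15 to 0.28) in PEP-619WW and -1.97 (-2.31 to -1.66) in PEP-WT. The MHC class II list gave 1.91 (1.83 to 1.98) in PEP-619WW and -0.99 (-1.38 to -0.63) in PEP-WT. The cell cycle list gave -0.26 (-0.29 to -0.24) in PEP-619WW and 0.29 (0.23 to 0.34) in PEP-WT, the survival and death list -0.18 (-0.24 to -0.12) in PEP-619WW and 0.46 (0.32 to 0.61) in PEP-WT, and the immediate early and heat shock list 0.24 (0.21 to 0.28) in PEP-619WW and -0.14 (-0.24 to -0.04) in PEP-WT.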

How the results depend on the processing

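The count of genes at least 2-fold higher, 635, became 1210 in the gate of the paper (*Cd3e* and *Cd8b1* present, fewer than 10 UMIs of *Mt2*, no excluded genes), 325 after thinning, 171 with at least 100 UMIs and 1709 with at least 1 UMI on each side. The count of 569 lower became 230 with at least 100 UMIs. The 325 after thinning were 6.22% of 5225 measured genes, beside 6.39% of 9936 for the 635. For the other settings the numbers of measured genes are not given here, so those counts do not show a change in share. The 11 glycolysis and hypoxia genes became 4 without mixed-content barcodes, 1 after thinning, 7 with the mean of per-barcode CPM and 7 with at least 100 UMIs. The 7 cytokine receptor genes became 4 after thinning, 3 with at least 100 UMIs and 4 against PEP-WT run 1, where the 7 naive and homing genes became 3 and the 13 interferon-stimulated genes 29. The gate share of 2.56% became 1.99% with at least 2 UMIs of *Cd8b1*, 3.55% in the gate of the paper, 1.96% with *Cd8a*, 7.42% with the mixed-content filter on the whole library, 2.91% at 2000 to 10000 UMIs and 0.956% after thinning. Over a whole library that filter also leaves out macrophages, B cells and neutrophils themselves, so the rise to 7.42% follows from it. With 20 principal components 3 clusters formed in place of 5. The causes were not tested, except that a UMI minimum and thinning leave fewer genes measured. *Rsad2* turned from 1.94 to -1.03 without mixed-content barcodes. Of 1272 values of named genes, list sums and the naive-like cluster under alternatives, 957 stayed inside the counting interval and 314 moved outside it. The genes *Birc2*, *Cd8b1*, *Itga1*, *Klra3* and *Mt1*, none of which was past 2-fold, also lay on the other side of 0 under 1 or more of thinning, mean CPM (0.24 for *Cd8b1*) and the PEP-WT run 1 gate (0.40 for *Klra3*). No paired analysis was made, since each genotype was 1 pooled library in each run and animals cannot be told apart. A model of genotype and run over the 4 libraries was not fitted: it would take the genotypes as replicates of a run, with 20 barcodes in the PEP-WT gate of run 2. With 1 library a side, depth limits values such as those of *Tigit*, *Tnf* and *Tnfsf14*, with 4 to 8 UMIs in run 2.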

Other observations

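T cell receptor variable genes were sparse in 3' counts. A UMI of a *Trbv* gene was found in 27 of 282 gated barcodes in PEP-619WW run 2 (9.57%) and in 175 of 611 in run 1 (28.6%), and a gamma chain variable gene in 18 (6.38%) and 17 (2.78%), at median depths of 3367 and 6919 UMIs. These shares were not thinned.

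In PEP-619WW several RNAs that are not tied to T cells differed between the runs in the same gate. *Malat1*, a nuclear RNA, stood at 13612 CPM in PEP-619WW run 2 against 6645 in run 1, and *Gm42418*, in ribosomal RNA sequence, at 9333 against 20997. The ribosomal protein genes *Rpl5* and *Rpl23a* had log2 ratios of 1.73 and 1.40, and *Lars2* and *mt-Atp8* -1.88 and -2.32. In PEP-WT, where the run 2 gate held 20 barcodes, the log2 ratios of *Malat1*, *Gm42418* and *Lars2* had the opposite sign, -0.41, 1.18 and 0.64, and those of *Rpl5*, *Rpl23a* and *mt-Atp8* were 1.16, 1.29 and -0.42. The cause was not tested.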
